A study of Mus musculus with 4 samples.

Results

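The classic cadherins and non-clustered protocadherins are calcium-dependent adhesion proteins of the cell surface, and their messenger RNAs were compared between mouse cortical cultures with and without knockdown of CTCF. Members were the protein-coding genes whose GENCODE vM21 symbol is Cdh or Pcdh followed by a number, with an optional x, so that the clustered Pcdha, Pcdhb and Pcdhg genes were left out. The rule found 35 of the 37437 listed genes, 23 of them Cdh and 12 Pcdh. It took in cadherins outside the classic groups as well, such as Cdh13, Cdh23 and Pcdh15.

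Cells of primary mouse cortical culture received an adeno-associated virus that knocked down Ctcf (shCTCF, 2 libraries) or lacZ (shLAC, 2 libraries), a bacterial gene that serves as the control target. The labels give no strain, sex, age of the culture or time after infection, and they do not say whether the libraries of a group came from separate cultures. Total RNA was sequenced, and each library was deposited as TPM, a length-corrected share of all transcripts that keeps no sequencing depth, so sequencing depth cannot be read from it and values carry no counting interval. P-values therefore measure spread only by how far apart the libraries of a group lie. That distance is taken in the gene itself and in other genes, from which the fit borrows, and it may be technical.

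A classic cadherin binds the same cadherin on a neighbouring cell through extracellular cadherin repeats, and its cytoplasmic tail binds p120-catenin and beta-catenin, which connect through alpha-catenin to actin. In the cortex the type I cadherin N-cadherin holds progenitors and synapses together, while the type II cadherins are expressed in subsets of neurons and layers. Protocadherins lack the catenin-binding tail. The delta-protocadherins are spread over several chromosomes, signal through partners such as the actin-regulating WAVE complex, and lack the shared constant exons of the clustered genes.

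Ctcf, the targeted gene, was at 3.25 and 3.39 scaled TPM in the shCTCF libraries and at 8.15 and 8.80 scaled TPM in the shLAC libraries. It fell by 1.13 on the log2 scale (limma adjusted p = 0.0177, SE 0.0617), and in the coding fit limma adjusted p was 0.00288. Over all tested genes the call was lost without shCTCF replicate 1, shCTCF replicate 2 or shLAC replicate 2 (limma adjusted p = 0.121, 0.109 and 0.0650) and with the replicate number as a block (0.0572). Predicted genes with high TPM in shLAC replicate 2, far above shLAC replicate 1, were picked and are named satellite-like here. Their repeat content was not examined, and their contrast with shLAC replicate 1 follows from the choice. These 13 genes held 20.2% of all TPM in shLAC replicate 2, against 0.405% to 1.86% in the other libraries. This lowered the other values of shLAC replicate 2 as deposited. Values are therefore given as scaled TPM, the deposited TPM divided by a median-ratio factor per library. As deposited, the median log2 fold change of all tested genes was 0.17. Changes are differences of mean log2(scaled TPM + 1), shCTCF minus shLAC, a scale that understates the change of low genes. A gene was tested at 1 TPM or more in at least 2 libraries, and called at a limma adjusted p below 0.05 over all 12816 tested genes. A second fit took only the 11268 tested protein-coding genes of at least 300 nt without the satellite-like genes, and is named the coding fit.

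Of the 35 members, 24 were tested, and each of these reached 1 TPM in at least 3 libraries. The other 11 were Cdh1, Cdh3, Cdh5, Cdh15, Cdh16, Cdh17, Cdh19, Cdh23, Cdh24, Cdh26 and Pcdh12. Of these, 10 were under 1 TPM in every library, and Cdh24 was the nearest to the limit, with 0.85 and 1.05 TPM as deposited in shCTCF and 0.97 and 0.91 TPM in shLAC. Cdh16, the kidney cadherin, was listed at 0 in all 4 libraries. Cdh5, the cadherin of endothelial junctions, was at 0.01 TPM as deposited in each library, and the epithelial cadherins Cdh1 and Cdh3 did not exceed 0.04 TPM.

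A few members made up most of the RNA of the family. The 35 genes summed to 361 and 375 scaled TPM in the shCTCF libraries and to 350 and 352 scaled TPM in the shLAC libraries. Cdh13 alone held between 22.7% and 24.5% of that sum in each library, and Cdh13, Pcdh9, Pcdh7 and Cdh2 together held between 51.1% and 53.6%. These shares are taken within a library, so no scaling enters them. At the low end of the tested members stood Pcdh18 and Cdh7, with means over the 4 libraries of 1.31 and 1.52 scaled TPM.

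**Figure D1:**
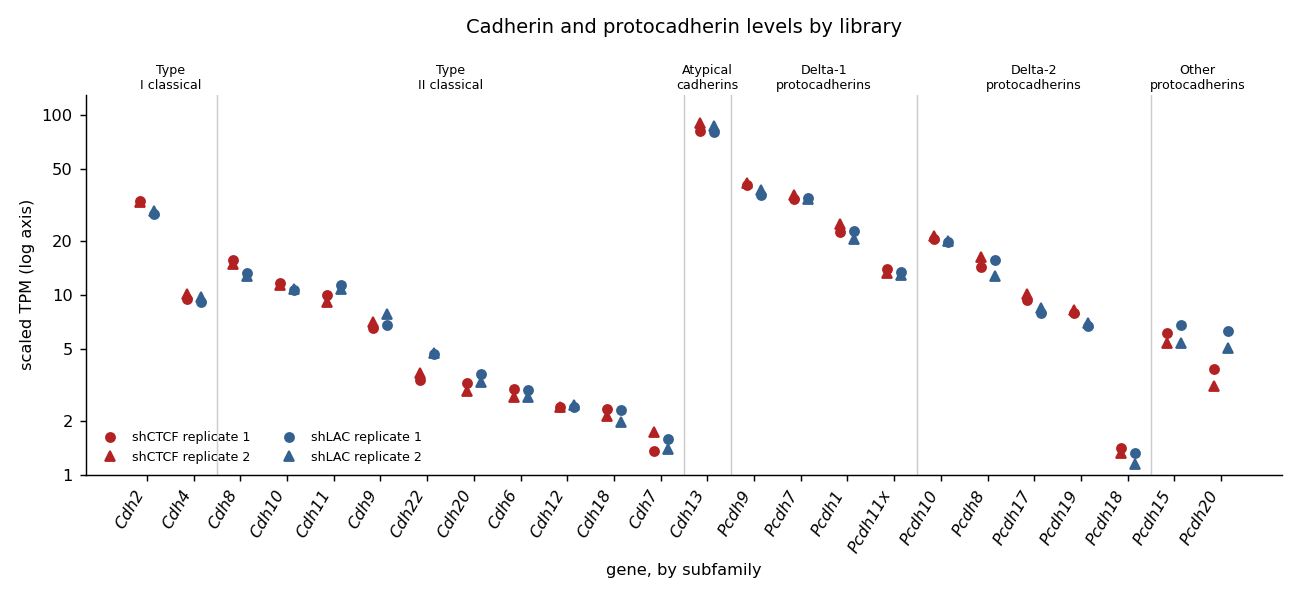
Scaled TPM (log axis) of the 24 tested members in each of the 4 libraries, grouped by subfamily, with shCTCF libraries in red on the left and shLAC libraries in blue on the right of each gene. Cdh13 was highest in every library, between 80.3 and 90.3 scaled TPM, and Pcdh20 and Cdh22 were lower in both shCTCF libraries than in either shLAC library.

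No member was called over all tested genes, where 1.05% of genes were called, 0.367% as higher and 0.679% as lower. The smallest limma adjusted p of a member was 0.0951, in Cdh22. In the coding fit 0 members rose and 2 fell, Cdh22 and Pcdh20, with 22 not called, where 6.06% of genes were called, 2.58% as higher and 3.48% as lower. As deposited 0 of 24 were called, where 2.82% of genes were, 1.92% as higher and 0.905% as lower. The 24 do not stand for all 35 members, since 11 were too low to test. At an unadjusted limma p below 0.05 over all tested genes, 5 members were higher and 3 were lower, against 10% of all tested genes in each direction.

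For 22 of the 24 members the 95% interval of the limma log2 fold change lay within -0.5 and 0.5, against 86.4% of all tested genes, and the exceptions were Pcdh20 and Cdh22. The median log2 fold change of the members was 0.04, from -0.57 in Pcdh20 to 0.23 in Pcdh17, and that of all tested genes was 0.00. After scaling 17 members were positive and 7 negative, where 49.9% of all tested genes were positive. As deposited 21 were positive and 3 negative, where 11151 of all 12816 tested genes were positive. The median size of a change without its sign was 0.09 in the members and 0.09 in all tested genes. In scaled TPM the groups did not overlap in 12 members, 7 of them higher and 5 lower in shCTCF, against 26.9% and 26.1% of all tested genes. As deposited, 14 members were higher and 1 was lower without overlap, against 45.5% and 3.49% of all tested genes. With 2 libraries against 2, an exact permutation test of a single gene cannot give a 2-sided p below 0.333.

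**Figure D2:**
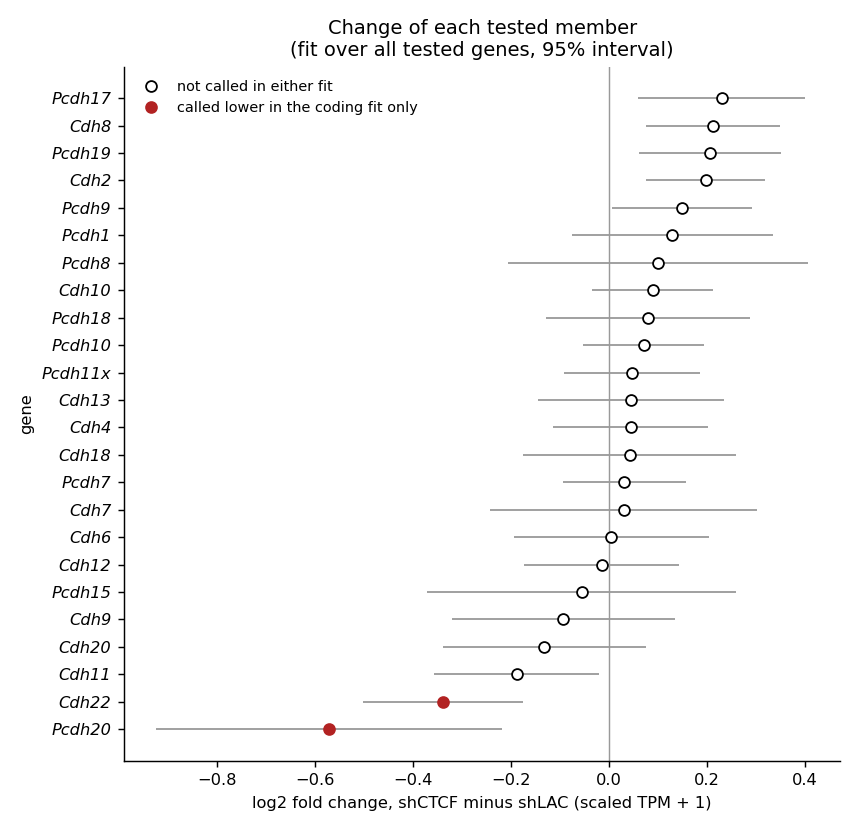
Log2 fold change of each tested member, shCTCF minus shLAC, in the fit over all tested genes, with its 95% limma interval. The points run from -0.57 in Pcdh20 to 0.23 in Pcdh17, and the filled points, Cdh22 and Pcdh20, were called lower in the coding fit but not over all tested genes.

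**Figure D3:**
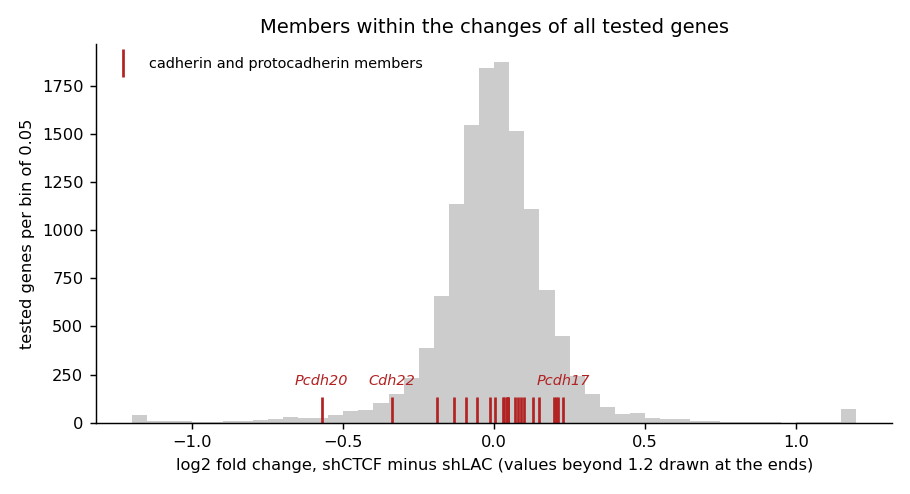
Number of tested genes by log2 fold change (grey) and the 24 members (red ticks). Of the 24, 22 lie between -0.19 and 0.23, in the central part of the 12816 tested genes, with Cdh22 at -0.34 and Pcdh20 at -0.57 on the lower side.

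Type I cadherins were carried by Cdh2, with Cdh4 behind it. Cdh2 (N-cadherin, the main cadherin of neural adherens junctions and many synapses; chromosome 18, 16588877 to 16809246, - strand, GRCm38) was at 33.5 and 32.8 scaled TPM in shCTCF and at 28.2 and 29.3 scaled TPM in shLAC. Both shCTCF values were above both shLAC values, also as deposited. The log2 fold change was 0.20 (SE 0.0452), and it was not called over all tested genes (limma adjusted p = 0.133) or in the coding fit (limma adjusted p = 0.0640). Its share of the family's sum was 9.27% and 8.74% in shCTCF and 8.06% and 8.32% in shLAC. Cdh4 (R-cadherin, which can also bind N-cadherin) was at 9.50 and 10.1 scaled TPM in shCTCF and at 9.19 and 9.78 scaled TPM in shLAC, with overlapping groups. Cdh15, the muscle cadherin, did not exceed 0.63 TPM as deposited.

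The type II cadherins, which sort neurons and synapses by cadherin type, had changes of both signs, and their sum was 60.6 and 59.1 scaled TPM in shCTCF and 60.7 and 60.1 scaled TPM in shLAC. Of 13, 10 were tested, 5 with a positive and 5 with a negative log2 fold change. As deposited, where most tested genes were positive, these counts were 8 and 2. The most abundant was Cdh8, a cadherin of particular cortical and thalamic neurons, with 15.6 and 14.8 scaled TPM in shCTCF and 13.2 and 12.8 scaled TPM in shLAC. Its groups did not overlap, and the log2 fold change of 0.21 (SE 0.0510) was not called (limma adjusted p = 0.141, and 0.0682 in the coding fit). Cdh10, a type II cadherin of cortical neurons, was at 11.6 and 11.3 scaled TPM in shCTCF and at 10.7 and 10.8 scaled TPM in shLAC, with a log2 fold change of 0.09.

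Cdh22 was the type II cadherin with the most negative change. Cdh22, a cadherin of brain and pituitary (chromosome 2, 165111507 to 165234853, - strand, GRCm38), was at 3.37 and 3.67 scaled TPM in shCTCF and at 4.70 and 4.73 scaled TPM in shLAC. Both shCTCF libraries were lower than both shLAC libraries, as they were in the TPM as deposited. The shCTCF mean was 74.7% of the shLAC mean. In the coding fit it fell by 0.34 on the log2 scale (limma adjusted p = 0.0410, SE 0.0671), and over all tested genes limma adjusted p was 0.0951. The call in the coding fit was lost without shCTCF replicate 1 or shCTCF replicate 2 (limma adjusted p = 0.155 and 0.106).

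Cdh11, a cadherin of mesenchyme that is also found in neurons and glia, was at 10.04 and 9.19 scaled TPM in shCTCF and at 11.4 and 10.8 scaled TPM in shLAC. Its scaled groups did not overlap, its groups as deposited did, and its log2 fold change was -0.19 (limma adjusted p = 0.216), against 0.00 as deposited. Cdh20 was at 3.25 and 2.91 scaled TPM in shCTCF and at 3.65 and 3.29 scaled TPM in shLAC. Its log2 fold change was -0.13 after scaling and 0.02 as deposited. Its share of the family's sum, which no scaling touches, was 0.899% and 0.776% in shCTCF and 1.04% and 0.934% in shLAC.

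Cdh9, which acts in the synapses of hippocampal mossy fibres, was at 6.55 and 7.05 scaled TPM in shCTCF and at 6.78 and 7.88 scaled TPM in shLAC. Cdh6, a cadherin used in retinal circuits, was at 2.99 and 2.71 scaled TPM in shCTCF and at 2.97 and 2.70 scaled TPM in shLAC, a log2 fold change of 0.00 with a 95% interval from -0.20 to 0.20. Cdh12, Cdh18 and Cdh7 lay between 1.37 and 2.45 scaled TPM in all libraries, with log2 fold changes from -0.02 to 0.04. The signs of Cdh9 and Cdh12 were negative after scaling and positive as deposited.

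Of the cadherins outside the classic groups only Cdh13 was tested. Cdh13 (T-cadherin, which is held in the membrane by a lipid anchor and has no cytoplasmic tail) was at 81.9 and 90.3 scaled TPM in shCTCF and at 80.3 and 86.4 scaled TPM in shLAC. The groups overlapped and the log2 fold change was 0.05, with a 95% interval from -0.15 to 0.24. Cdh23, the partner of Pcdh15 in the tip link of hair cells, did not exceed 0.14 TPM as deposited.

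All 4 delta-1 protocadherins were tested and had positive log2 fold changes, with a median of 0.09, and their sum was 112 and 116 scaled TPM in shCTCF and 106 in each shLAC library. Pcdh9, expressed in subsets of cortical neurons, was the most abundant protocadherin, with 40.8 and 41.8 scaled TPM in shCTCF and 35.8 and 38.5 scaled TPM in shLAC. Its groups did not overlap, and its log2 fold change of 0.15 (SE 0.0535) was not called (limma adjusted p = 0.235). Pcdh7, whose tail can bind protein phosphatase 1, was at 34.3 and 36.1 scaled TPM in shCTCF and at 34.4 and 34.3 scaled TPM in shLAC, with a log2 fold change of 0.03. Pcdh1 was at 22.4 and 24.7 scaled TPM in shCTCF and at 22.5 and 20.4 scaled TPM in shLAC. Pcdh11x, on the X chromosome, was at 14.0 and 13.3 scaled TPM in shCTCF and at 13.4 and 12.9 scaled TPM in shLAC. The groups of Pcdh7, Pcdh1 and Pcdh11x overlapped in scaled TPM.

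The 5 delta-2 protocadherins, which can recruit the WAVE complex, also had positive log2 fold changes. Of them, 0 were called over all tested genes, where 1.05% of genes were, or in the coding fit, where 6.06% were. Their sum was 53.4 and 57.2 scaled TPM in shCTCF and 51.4 and 49.3 scaled TPM in shLAC. Pcdh17, which acts at presynaptic sites of corticobasal circuits (chromosome 14, 84443563 to 84539002, + strand, GRCm38), was at 9.36 and 10.2 scaled TPM in shCTCF and at 7.93 and 8.44 scaled TPM in shLAC. The difference of 0.23 on the log2 scale (SE 0.0640) was not called, with limma adjusted p = 0.171, and 0.0941 in the coding fit. Pcdh19, the gene of an X-linked epilepsy in humans, was at 7.91 and 8.26 scaled TPM in shCTCF and at 6.72 and 7.03 scaled TPM in shLAC, a log2 fold change of 0.21 that was not called (limma adjusted p = 0.1597). In both genes each shCTCF library exceeded each shLAC library.

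Pcdh10, which takes part in activity-dependent synapse removal, was at 20.4 and 21.3 scaled TPM in shCTCF and at 19.7 and 19.9 scaled TPM in shLAC, with a log2 fold change of 0.07. Pcdh8, known as arcadlin and induced by neuronal activity, was at 14.4 and 16.2 scaled TPM in shCTCF and at 15.7 and 12.8 scaled TPM in shLAC. In Pcdh8 the groups overlapped, with shCTCF replicate 2 the highest library and shLAC replicate 2 the lowest. Pcdh18 was at 1.404 and 1.33 scaled TPM in shCTCF and at 1.33 and 1.15 scaled TPM in shLAC.

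Pcdh20 had the most negative log2 fold change of the tested members. Pcdh20, a protocadherin outside the delta groups in the lists used here (chromosome 14, 88464743 to 88471396, - strand, GRCm38), was at 3.86 and 3.11 scaled TPM in shCTCF and at 6.29 and 5.05 scaled TPM in shLAC. In scaled TPM both shCTCF libraries were below both shLAC libraries, and the shCTCF mean was 61.4% of the shLAC mean. As deposited the groups overlapped, with 4.23 and 3.27 TPM in shCTCF and 6.56 and 4.20 TPM in shLAC. In the coding fit Pcdh20 fell by 0.57 on the log2 scale (limma adjusted p = 0.0424, SE 0.115), and over all tested genes limma adjusted p was 0.134. Without shCTCF replicate 2 the call in the coding fit was lost (limma adjusted p = 0.147). Its share of the family's sum, which no scaling touches, was 1.07% and 0.830% in shCTCF and 1.80% and 1.43% in shLAC.

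Pcdh15, the tip-link protocadherin of hair cells, was at 6.14 and 5.43 scaled TPM in shCTCF and at 6.77 and 5.38 scaled TPM in shLAC, with overlapping groups and a log2 fold change of -0.06 after scaling, against 0.12 as deposited. Pcdh12, an endothelial protocadherin, did not exceed 0.08 TPM as deposited. The clustered protocadherins, which the rule leaves out, had a median log2 fold change of -0.34 over 52 tested genes, against 0.08 over the 11 tested non-clustered Pcdh genes. The clustered genes summed to 147 and 141 scaled TPM in shCTCF and to 175 and 181 scaled TPM in shLAC, and the difference between the 2 sets was not tested.

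Members that neighbour each other on a chromosome were then set against each other within each library, where no scaling enters. The 24 tested members gave 14 pairs of neighbours, which here means that no other tested member lies between them. Other genes can lie between, up to 186 listed protein-coding genes over 21377 kb in Cdh2 and Pcdh1. The ratio of the first gene to the second did not overlap between groups in 8 pairs. Among 11235 pairs of genes that follow each other directly in the coding fit, 54.5% did not overlap. The count lies near that share, although the member pairs are mostly farther apart. On chromosome 8, Cdh8 and Cdh11 are separated by 3216 kb with no listed protein-coding gene between them. The ratio of Cdh8 to Cdh11 was 1.56 and 1.61 in shCTCF and 1.16 and 1.18 in shLAC, so that both shCTCF libraries lay above both shLAC libraries.

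On chromosome 14, Pcdh17 and Pcdh20 are 3926 kb apart, with 2 listed protein-coding genes between them. The ratio of Pcdh17 to Pcdh20 was 2.43 and 3.27 in shCTCF and 1.26 and 1.67 in shLAC. On the other side of Pcdh20 lies Pcdh9, and the ratio of Pcdh20 to Pcdh9 was 0.0945 and 0.0744 in shCTCF and 0.176 and 0.131 in shLAC. Pcdh20 was thus lower in shCTCF relative to the tested member on each side. Both ratios hold the same Pcdh20 values given above, so they are not separate evidence of its change. They also hold the higher shCTCF values of Pcdh17 and Pcdh9, so their size is not that of Pcdh20 alone. On chromosome 15, Cdh6, Cdh9, Cdh10, Cdh12 and Cdh18 follow each other with no other listed protein-coding gene between them. There the ratio of Cdh9 to Cdh10 was 0.562 and 0.623 in shCTCF and 0.636 and 0.729 in shLAC, that of Cdh10 to Cdh12 was 4.89 and 4.74 in shCTCF and 4.46 and 4.41 in shLAC, and the other pairs overlapped.

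**Figure D4:**
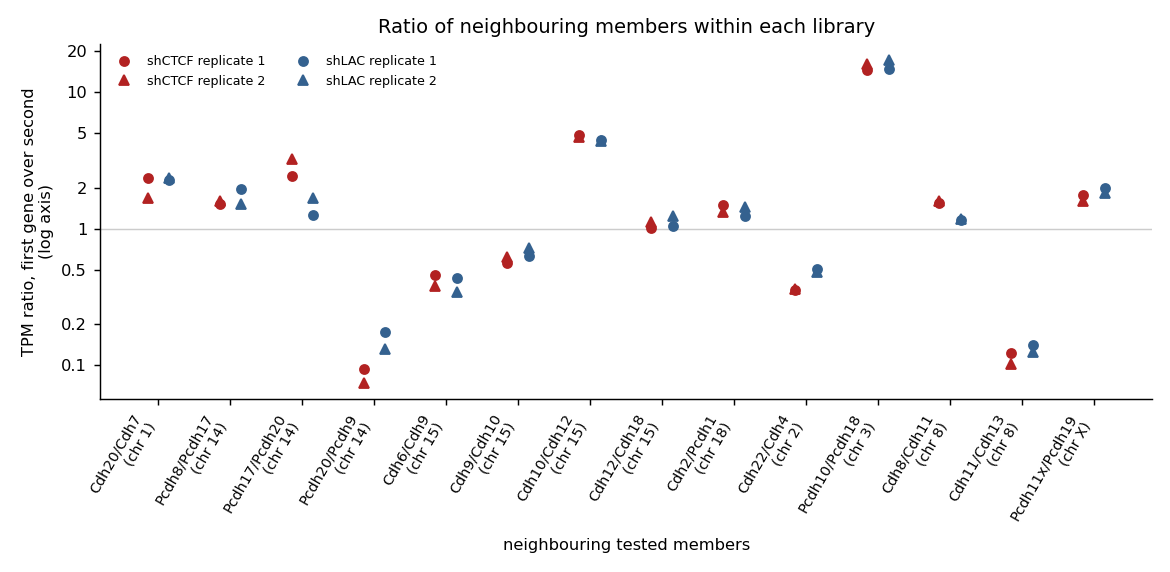
Ratio of deposited TPM (log axis) of neighbouring tested members in each library, first gene over second, with shCTCF libraries in red on the left and shLAC libraries in blue on the right of each pair. Cdh8/Cdh11 and Pcdh17/Pcdh20 were higher, and Pcdh20/Pcdh9 and Cdh22/Cdh4 lower, in both shCTCF libraries than in either shLAC library. Between Cdh22 and Cdh4 lie 134 listed protein-coding genes.

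Promoter windows from RefSeq (GRCm38.p6, 250 bases before to 50 after a start) were found for 22 of the 35 members, in 25 windows. They held from 2 to 38 CG dinucleotides, with a median of 14, against a median of 7 over all 32851 windows. Those windows, of 27025 genes, were not limited to protein-coding or tested genes, so the sets are unlike. The 250 bases before the RefSeq start are printed with CG dinucleotides in capitals. They are given for the 2 members called in the coding fit and for Pcdh17 and Cdh8, the members with the most positive changes. The RefSeq start of Cdh22 lies inside the GENCODE span given above, so part of its printed bases falls within that span. Cdh22 is read from chr2:165234738-165234987 (- strand), Pcdh20 from chr14:88471397-88471646 (- strand), Pcdh17 from chr14:84443313-84443562 (+ strand) and Cdh8 from chr8:99416472-99416721 (- strand).
Cdh22: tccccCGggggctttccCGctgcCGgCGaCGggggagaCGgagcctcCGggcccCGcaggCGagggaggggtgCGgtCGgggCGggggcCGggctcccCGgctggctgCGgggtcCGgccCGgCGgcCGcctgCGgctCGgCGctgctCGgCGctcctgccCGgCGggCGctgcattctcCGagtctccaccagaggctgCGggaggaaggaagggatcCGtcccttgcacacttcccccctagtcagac
Pcdh20: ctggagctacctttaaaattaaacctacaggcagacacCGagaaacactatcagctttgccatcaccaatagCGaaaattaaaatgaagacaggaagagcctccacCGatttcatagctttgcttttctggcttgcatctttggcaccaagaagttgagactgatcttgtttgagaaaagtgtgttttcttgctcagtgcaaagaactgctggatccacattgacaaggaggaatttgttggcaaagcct
Pcdh17: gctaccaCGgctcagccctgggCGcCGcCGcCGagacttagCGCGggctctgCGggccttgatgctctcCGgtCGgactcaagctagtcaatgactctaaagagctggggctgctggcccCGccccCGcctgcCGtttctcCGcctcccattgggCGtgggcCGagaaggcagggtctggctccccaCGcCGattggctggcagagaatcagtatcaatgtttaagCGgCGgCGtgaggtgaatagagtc
Cdh8: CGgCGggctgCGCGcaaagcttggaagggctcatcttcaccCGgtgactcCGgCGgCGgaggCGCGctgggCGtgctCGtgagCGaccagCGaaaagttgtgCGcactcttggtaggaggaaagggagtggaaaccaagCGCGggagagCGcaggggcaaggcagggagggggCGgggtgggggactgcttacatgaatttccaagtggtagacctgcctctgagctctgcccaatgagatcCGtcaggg
Cdh22 had 30 CG in these bases and Pcdh20 had 3, while Pcdh17 had 21 and Cdh8 had 20. Of these 4, the 2 members called lower stood at opposite ends of the CG content, with the other 2 between them. The 4 were picked by their change. Over the 18 tested members with a window, CG count and log2 fold change had a Spearman correlation of 0.37, which was not tested.

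Most members are long genes. The 24 tested members spanned from 4.54 kb in Pcdh8 to 1550 kb in Pcdh15, with a median of 177 kb, against 26.4 kb over the protein-coding genes of the coding fit. Of the 24, 18 were longer than 100 kb, against 16.3% of those genes. Coding genes of over 300 kb had a median log2 fold change of 0.03, and the 9 members among them, such as Cdh13 and Pcdh9, a median of 0.04. Coding genes from 100 to 300 kb had a median of 0.00, as did their 9 members. Pcdh20, with 6.65 kb, and Pcdh8 were the shortest tested members. The counting strand is not given, and 5 tested members (Cdh8, Pcdh7, Pcdh8, Pcdh10 and Pcdh19) share exon bases with a listed gene on the opposite strand, none of which exceeded 0.57 TPM as deposited.

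The intracellular partners of classic cadherins were read from the same fits. Of 14 catenins and junction partners, 13 were tested and 0 were called over all tested genes, where 1.05% of genes were called. In the coding fit 2 rose, Ctnna2 and Ctnnd2, and 1 fell, Ctnnd1, where 2.58% of genes were called higher and 3.48% lower. The median log2 fold change of the list was 0.09, with 9 positive and 4 negative. As deposited, where most tested genes were positive, these counts were 12 and 1.

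Ctnna2 (neuronal alpha-catenin, the link from cadherins to actin) was at 44.6 and 44.1 scaled TPM in shCTCF and at 35.1 and 34.2 scaled TPM in shLAC. Its log2 fold change in the coding fit was 0.35 (limma adjusted p = 0.0113), and over all tested genes limma adjusted p was 0.0588. Ctnnd2 (delta-catenin, a neuronal relative of p120-catenin) was at 23.8 and 24.4 scaled TPM in shCTCF and at 19.6 and 20.4 scaled TPM in shLAC, a log2 fold change of 0.26 in the coding fit (limma adjusted p = 0.0365). Ctnnd1 (p120-catenin, which keeps cadherins at the surface) was at 8.96 and 10.2 scaled TPM in shCTCF and at 13.9 and 13.3 scaled TPM in shLAC. It fell by 0.46 on the log2 scale in the coding fit (limma adjusted p = 0.0203). The groups of these 3 genes did not overlap, after scaling or as deposited. Ctnnb1 (beta-catenin) was at 143 and 145 scaled TPM in shCTCF and at 131 and 132 scaled TPM in shLAC and was not called (limma adjusted p = 0.211). Without shCTCF replicate 1 the coding-fit calls of Ctnnd1 and Ctnnd2 were lost (limma adjusted p = 0.0522 and 0.0980), and without shCTCF replicate 2 those of Ctnna2 and Ctnnd2 (limma adjusted p = 0.0576 and 0.177).

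Of 10 genes that shed or process cadherins, 9 were tested. Of these, 0 were called over all tested genes, as deposited or in the coding fit. The shares of genes called in these fits were 1.05%, 2.82% and 6.06%. Log2 fold changes of the 9 ran from -0.14 to 0.19 with a median of -0.01, against 0.16 as deposited. Psenen, a gamma-secretase subunit, was at 18.0 and 17.1 scaled TPM in shCTCF and at 20.4 and 18.3 scaled TPM in shLAC, and Ncstn, another subunit, was at 13.6 and 14.5 scaled TPM in shCTCF and at 14.9 and 16.2 scaled TPM in shLAC. Of 12 protocadherin effectors, the WAVE complex among them, 11 were tested. In these fits, with the same shares over all genes, 0 of the effectors were called. Their median was -0.06 with 4 positive and 7 negative after scaling, and 0.12 with 10 positive and 1 negative as deposited. The sign of their median thus changed with the scaling. Over all tested genes the median was 0.00 after scaling and 0.17 as deposited. Ppp1ca, the catalytic phosphatase subunit that delta-1 tails can bind, was at 74.2 and 74.8 scaled TPM in shCTCF and at 90.6 and 83.9 scaled TPM in shLAC (log2 fold change -0.22, limma adjusted p = 0.145). As deposited its groups overlapped. Abi2, a WAVE complex subunit, was at 66.8 and 69.4 scaled TPM in shCTCF and at 73.8 and 77.5 scaled TPM in shLAC, and its log2 fold change was -0.15 after scaling and 0.05 as deposited, where its groups overlapped.

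Other genes of the cadherin superfamily mostly had positive changes. Of 25, 11 were tested, 10 of them with a positive log2 fold change, against 49.9% of all tested genes. Their median was 0.13. In the fit over all tested genes 0 were called, where 1.05% of genes were. In the coding fit 2 rose, Celsr2 and Fat4, where 2.58% of genes were called higher. Celsr2, a seven-pass cadherin of planar polarity and axon tracts, was at 8.77 and 9.79 scaled TPM in shCTCF and at 7.26 and 6.92 scaled TPM in shLAC, a log2 fold change of 0.35 in the coding fit (limma adjusted p = 0.03998). Fat4, a giant cadherin that pairs with Dchs1, was at 10.6 and 11.3 scaled TPM in shCTCF and at 8.85 and 8.98 scaled TPM in shLAC, a log2 fold change of 0.27 in the coding fit (limma adjusted p = 0.0447). Both calls were lost without shCTCF replicate 2 (limma adjusted p = 0.182 and 0.220), and that of Fat4 also without shCTCF replicate 1 (0.0904).

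**Figure D5:**
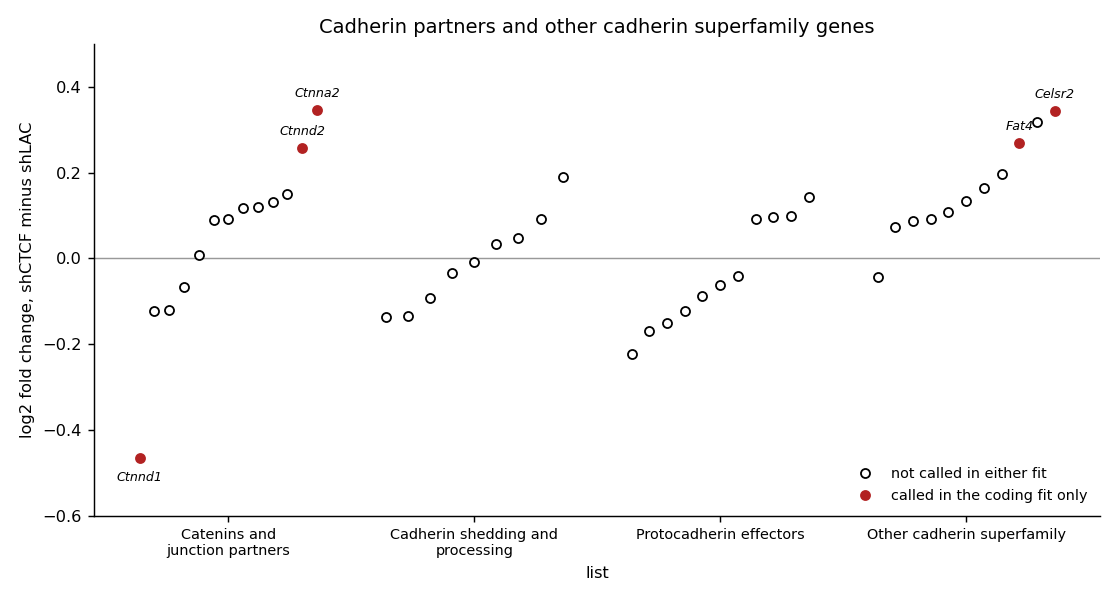
Log2 fold change of the tested genes of 4 lists, shCTCF minus shLAC, in the fit over all tested genes, with each point a gene and genes ordered by value within a list. Filled points were called in the coding fit only: Ctnna2, Ctnnd2, Celsr2 and Fat4 were higher and Ctnnd1 was lower in shCTCF.

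In bulk RNA, fewer cells of a type and less RNA per cell cannot be told apart, so cell type markers were summed beside these levels. The 5 pan-neuronal markers summed to 942 and 927 scaled TPM in shCTCF and to 916 and 924 scaled TPM in shLAC. Of them, Rbfox3 rose in the coding fit, where its limma adjusted p was 0.0461, while 4 were not called, with log2 fold changes from -0.11 in Snap25 to 0.10 in Tubb3. The 7 astrocyte markers summed to 84.3 and 69.6 scaled TPM in shCTCF and to 107 and 92.5 scaled TPM in shLAC, and of 6 tested Aqp4 and Slc1a3 fell in the coding fit. The fibroblast markers summed to 2.22 and 1.89 scaled TPM in shCTCF and to 3.29 and 3.15 scaled TPM in shLAC, most of it Dcn, which fell in the coding fit, with Col1a1 and Col1a2 at no more than 0.10 TPM as deposited. The excitatory markers summed to 130 and 124 scaled TPM in shCTCF and to 115 and 110 scaled TPM in shLAC, and the inhibitory markers to 124 and 121 scaled TPM in shCTCF and to 115 and 108 scaled TPM in shLAC. Of these, 0 of 5 excitatory and 1 of 4 tested inhibitory markers rose in the coding fit, where 2.58% of genes were called higher and 3.48% lower. Most of the excitatory sum was Slc17a7, at 88.1 and 82.8 scaled TPM in shCTCF and at 75.7 and 67.7 scaled TPM in shLAC. The log2 fold change was positive in 4 excitatory markers and negative in 1, Neurod6 (-0.07). It was positive in the 4 tested inhibitory markers, while Dlx2, under 1 TPM and not tested, was lower in both shCTCF libraries. The astrocyte and fibroblast sums were lower in both shCTCF libraries, as were Cdh22, Pcdh20, Cdh11 and Ctnnd1. The excitatory and inhibitory sums were higher in both, as were Cdh2, Cdh8, Pcdh17 and Ctnna2. Of all tested genes, 26.9% were higher and 26.1% lower without overlap. Within groups the order could differ, as the astrocyte sum was higher in replicate 1 and Cdh22 in replicate 2. The part of cell types in these results was not tested. The sums of the oligodendrocyte lineage markers overlapped between groups, with 79.0 and 71.0 scaled TPM in shCTCF and 78.0 and 65.9 scaled TPM in shLAC, as did those of proliferating cells, with 24.4 and 27.9 scaled TPM in shCTCF and 23.9 and 27.2 scaled TPM in shLAC. The microglial and endothelial markers summed to no more than 0.805 and 0.553 scaled TPM in any library, and the endothelial Cldn5 was listed at 0 in all 4.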

How the data were processed

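TPM per Ensembl gene, to 2 decimals, was deposited by the authors in 1 file per library. The submitters' processing notes name RSEM 1.2.28, CASAVA and mm10. Which annotation release was used, how reads were aligned and whether counting was stranded is not given in the sources used here. Because TPM is relative to a library's total, abundant RNA in 1 library lowers all its other values. GENCODE vM21 (GRCm38, the assembly of mm10) named 37060 of the 37437 identifiers.

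Genes at 1 TPM or more in at least 2 libraries were scaled by median ratios. Their log2(TPM + 1) values were fitted with limma 3.58.1 in R 4.3.3, using a trended variance prior, no covariates, and Benjamini-Hochberg adjustment at 0.05. The prior had 2.44 degrees of freedom over all tested genes, and the coding fit had 4.57. Every member was named, as were the genes of the partner lists that were called, and lists with no call are shown by their 2 most abundant genes. Ctnnb1 and the marker genes named fall outside that rule and were chosen after their values were seen. The code was tested on simulated data. Alternatives covered scaling, filters, pseudocounts, the variance trend, the replicate numbers as a block, and each library omitted in turn. The members and lists were chosen with earlier results of these data known.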

Additional observations from a re-analysis of the deposited data

How the results depend on the processing

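Of 448 values of the 24 tested members under 19 other settings, 406 kept their direction and side of the threshold, 13 passed it in the same direction, and 29 changed sign. As deposited, the log2 fold change was 0.087 in Cdh9, 0.13 in Cdh12, 0.022 in Cdh20 and 0.12 in Pcdh15. With 1 library omitted, over all tested genes, it ran from -0.049 to 0.057 in Cdh6, -0.073 to 0.13 in Cdh7, -0.024 to 0.12 in Cdh13, -0.030 to 0.11 in Cdh18, -0.0046 to 0.069 in Pcdh7, -0.040 to 0.24 in Pcdh8 and -0.20 to 0.087 in Pcdh15. In the coding fit without shCTCF replicate 1 it was -0.042 in Cdh6. Without shCTCF replicate 2 it was -0.071 in Cdh7, -0.021 in Cdh13, -0.0016 in Pcdh7 and 0.022 in Pcdh15. Without shLAC replicate 1 it was -0.0042 in Cdh13 and 0.087 in Pcdh15. Without shLAC replicate 2 it was -0.041 in Cdh6, -0.024 in Cdh7, 0.0090 in Cdh9, 0.0035 in Cdh12, -0.022 in Cdh18 and -0.030 in Pcdh8. Counts of calls with 1 library omitted ran from 2 to 42 higher and 7 to 64 lower over all tested genes. The coding fit gave from 64 to 510 higher and 118 to 615 lower, with 124 and 222 without shCTCF replicate 1 and 466 and 586 without shLAC replicate 2. There 0 to 1 members were then higher and 0 to 2 lower, with 0 to 5 higher and 0 to 2 lower genes of the partner and wider cadherin lists, and over all tested genes 0 of either. Without shLAC replicate 2 the member called higher in the coding fit was Cdh2 (limma adjusted p = 0.0420). An arm left with 1 library was assumed to vary like the other. With every library, 47 genes were higher and 87 lower over all tested genes, against 291 and 392 in the coding fit, which called 2 members lower and 4 partner or wider cadherin genes higher and 1 lower. As deposited 246 genes were higher and 116 lower, without a filter 12 and 15, and with a mean of 5 TPM or more 21 and 38. The cause was not tested.

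Replicate numbers are shared only as labels, and same-numbered libraries deviated from their group means with r = 0.082 across genes. With the replicate block 5 genes were higher and 9 lower over all tested genes, 0 of them members. In the coding fit the block gave 597 higher and 716 lower, among them 3 members higher (Cdh2, Cdh8 and Pcdh17, limma adjusted p = 0.0433, 0.0377 and 0.0376), 2 lower, and 5 genes of the partner and wider cadherin lists higher and 2 lower. Ctcf was called in the coding fit with the block and with each library omitted.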
